A study of Mus musculus with 12 samples.

Results

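Nucleotide synthesis in mouse thymocytes was followed through 9 genes, which are 9 of the 55335 gene rows in each deposited count table. They were listed by symbol, with no threshold on a measured value, though earlier results of these data were known when the list was made: Ppat, Gart, Paics and Impdh2 of purine synthesis, Rrm1, Rrm2 and Tyms of deoxynucleotide supply, and Dck and Tk1 of salvage. All 9 were found in both tables and all 9 passed the filter on low counts in both assays. The list was drawn up because loss of miR-181 is reported to limit the anabolic metabolism of thymocytes. The material was thymus from 6-week-old mice kept under specific-pathogen-free conditions, 3 wild type (WT) and 3 with both microRNA genes of the miR-181a/b-1 pair knocked out (KO). Cells of all mice went straight into saline with cycloheximide, which holds ribosomes in place on mRNA. Each genotype gave 3 RNA-seq libraries and 3 ribosome footprint libraries, 12 in all. The labels name no strain and do not say whether the deletion is limited to 1 cell type.

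Purines are built on ribose phosphate in a chain of steps. Ppat makes the committed first step, Gart and Paics carry several of the steps that follow, and Impdh2 turns inosine monophosphate towards guanine nucleotides. Ribonucleotide reductase, made of a large subunit (Rrm1) and a small subunit (Rrm2), converts ribonucleotides to deoxynucleotides, and thymidylate synthase (Tyms) makes the thymidine nucleotide that only DNA uses. Salvage recovers free nucleosides instead: deoxycytidine kinase (Dck) and cytosolic thymidine kinase (Tk1) put the first phosphate back. The thymus is a tissue of intense cell division and cell death, and lymphoid progenitors there are known to depend on both routes.

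The deleted pair encodes the mature microRNAs below, shown because they define the knockout. Sequences are from RefSeq (GRCm38.p6), at chr1:137966468-137966490 and chr1:137966650-137966673 on the plus strand, with the seed, bases 2 to 8, in capitals. Both carry the same seed.
mmu-miR-181a-5p: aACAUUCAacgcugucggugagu
mmu-miR-181b-5p: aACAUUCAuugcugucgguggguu
The row of Mir181a-1 held 1535 to 2898 reads in each WT footprint library and 4 to 16 in each KO footprint library. The gene encodes a microRNA, and whether these reads came from ribosomes was not tested. Its RNA-seq reads numbered 57 over the WT and 67 over the KO libraries. The footprint labels are thus checked by the deleted gene and the RNA-seq labels are not, so WT and KO in RNA-seq mean the libraries labelled so.

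Libraries held 4479182 to 8180286 reads in genes in RNA-seq and 4069968 to 17859770 in footprints, the fewest in footprint KO replicate 3. Thymocyte markers (11 genes, among them Cd3e, Cd4, Cd8a and Rag1) summed to 22244 to 23625 CPM in WT footprints and to 21689 to 23094 in KO, with 2 called higher and 3 lower (1 with the block). That is a larger share than the 17.6% of all genes called in footprints (3.02% with the block), a difference that was not tested. In RNA-seq these markers summed to 15694 to 17470 CPM in WT and 14652 to 16014 CPM in KO, with 1 called lower (0 with the block), and none of the 11 was at 0 reads. Over all genes 6.91% were called in RNA-seq (0.806% with the block). Levels are given throughout as CPM, the reads of a gene scaled to a common library total with TMM factors, computed here from the deposited counts. In bulk libraries, fewer cells of a type and less RNA per cell cannot be told apart.

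Replicate numbers carry a pattern that bears on every error given for the 9 genes. Wherever a WT library lay above the WT mean, the KO library of the same number lay below the KO mean by almost the same amount, and the reverse. This held in 27 of 27 combinations of gene and number in RNA-seq and in 27 of 27 in footprints. The mean of the same-numbered WT and KO libraries therefore hardly moved. For Rrm1 in footprints these pair means were 869, 874 and 875 CPM, while the WT libraries alone differed by 21.4% of their mean. For Impdh2 in RNA-seq the pair means were 5.35, 5.31 and 5.23 CPM, an SD of 1.17%, where counting error alone gives 12.3% at 58 or more reads a pair. The SD of the 3 pair means lay below counting error in 9 of 9 genes in RNA-seq and in 9 of 9 in footprints. Across all genes, the deviations of same-numbered WT and KO libraries correlated at -0.99 to -0.97 over 9814 genes in RNA-seq and at -0.98 over 9902 genes in footprints; these genes share their libraries and are not replicates. The authors call the counts adjusted without saying how, and what produced the mirroring was not tested. SDs and SEs here may not measure the spread between mice, so results are also given from a fit with the replicate number as a blocking term, called the block.

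**Figure D1:**
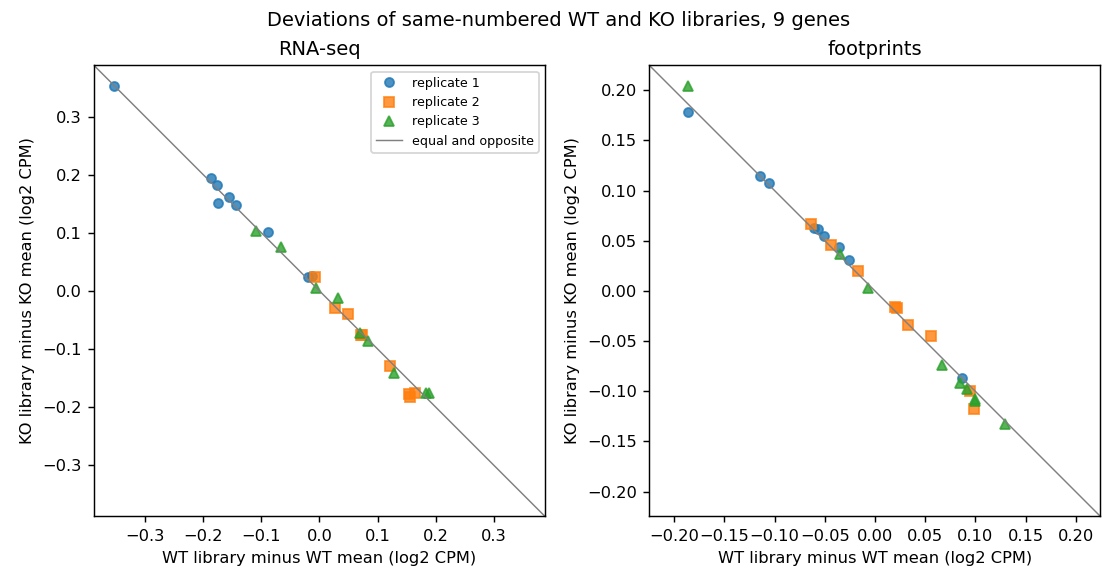
Deviation of each KO library from the KO mean (vertical axis, log2 CPM) against that of the same-numbered WT library from the WT mean (horizontal axis, log2 CPM), for the 9 genes in RNA-seq and in footprints. Each point is 1 gene and 1 replicate number, the line marks equal and opposite deviations, and all 27 points of each panel lie close to it.

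None of the 9 genes passed the test of KO against WT in RNA. By edgeR's quasi-likelihood test with Benjamini-Hochberg adjustment (FDR under 0.05), 0 of 9 were called, where 6.91% of 13652 genes were, and DESeq2 also called 0. With the block it was again 0 of 9, against 0.806% of all genes. At an unadjusted edgeR p under 0.05 lay 1 of 9, Impdh2, beside 23.8% of all genes. The log2 fold changes ran from -0.22 for Gart to 0.41 for Impdh2, 6 higher and 3 lower in KO, with a median of 0.06 beside -0.00 for all genes. Of all genes 50.1% lay lower. The WT and KO libraries did not overlap for 2 of 9 genes, Ppat and Impdh2, both higher in KO; such separation was seen for 30.9% of all genes, so 2 of 9 lies near the background.

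In footprints most of the 9 lay a little lower in KO, and 1 was called. Gart was that gene, whose footprints dropped by 9.31%; 1 of 9 is close to the background, since 17.6% of 13509 genes were called in either direction and 8.34% were called lower. With the block 0 of 9 were called, against 3.02%. DESeq2 also called 1 gene lower, but a different one, Rrm2, where it called 3.69% of all genes lower. At an unadjusted edgeR p under 0.05 lay 2 of 9, Gart and Rrm2, beside 33.1% of all genes. The log2 fold changes ran from -0.24 for Rrm2 to 0.06 for Impdh2, 7 lower and 2 higher, with a median of -0.06 beside -0.01 for all genes. Of all genes 51.6% lay lower. The 9 genes share their libraries, and the difference between these shares was not tested. Without overlap between WT and KO libraries were 3 of 9 genes, Gart, Rrm2 and Tk1, all lower in KO, near the background of 38.1%.

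**Figure D2:**
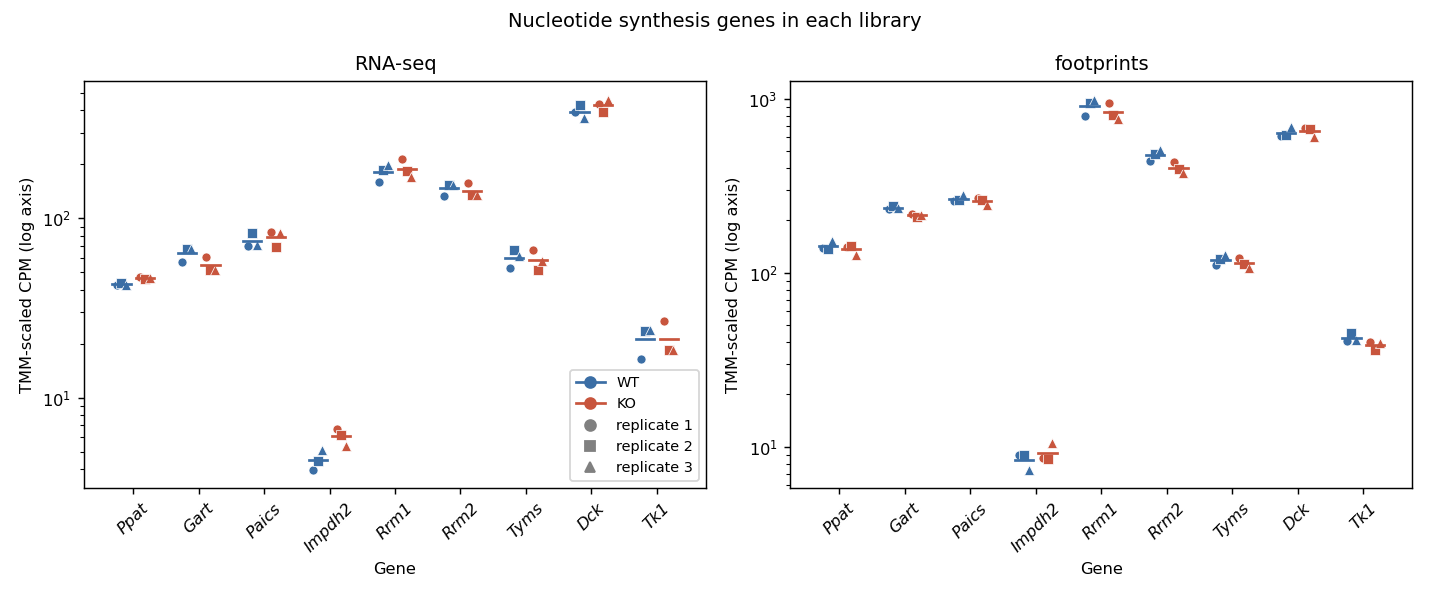
Level of each of the 9 genes in every library (TMM-scaled CPM, log axis) in RNA-seq and in footprints, WT in blue and KO in red, with symbols for the replicate number and a bar at the group mean. KO footprint libraries lie below all WT libraries for Gart, Rrm2 and Tk1; levels of different genes are not comparable here, since CPM is not per length.

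Ppat (ENSMUSG00000029246.14), the committed step of purine synthesis, had 42.3, 43.7 and 42.7 CPM in the WT RNA-seq libraries 1 to 3 and 47.4, 45.7 and 46.8 CPM in those of KO. Every KO library lay above every WT library, with the smallest spread of the 9 genes in RNA-seq. The log2 fold change was 0.12 (SE 0.06), at an edgeR FDR of 0.249, or 0.865 with the block, and its 95% interval reached from -0.890% to 19.5%. Footprints gave 139, 137 and 153 CPM in WT and 141, 143 and 127 CPM in KO. Here the groups overlapped, with WT 3 the highest library and KO 3 the lowest (log2 fold change -0.05, edgeR FDR 0.628). Ppat and Paics stand head to head in the RefSeq annotation with overlapping 5′ ends. Whether reads on this overlap were set apart as ambiguous in the counting depends on the strand setting, which is not given in the sources used here.

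Gart (ENSMUSG00000022962.15) encodes an enzyme with 3 catalytic activities of purine synthesis. Its promoter is shown because it is the 1 gene of the 9 called by edgeR, and because 2 short motifs lie in it on the coding strand, GGGCGG (Sp1 type) and CCAAT (NF-Y type), in capitals. The 120 bases end just before the RefSeq start site (GRCm38.p6, chr16:91646973-91647092, minus strand).
Gart promoter: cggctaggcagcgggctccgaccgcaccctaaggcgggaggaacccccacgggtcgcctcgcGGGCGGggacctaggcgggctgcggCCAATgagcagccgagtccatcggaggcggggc
Gart footprints stood at 232, 242 and 235 CPM in WT and at 219, 209 and 215 CPM in KO. All 3 KO libraries were below all 3 WT libraries, by a mean of 236 ± 5.0 against 214 ± 4.75 CPM (SD, n = 3). The log2 fold change was -0.14 (SE 0.04; edgeR FDR 0.0394), a change of -9.31% with a 95% interval from -14.5% to -3.82%. The call was lost with the block (FDR 0.448), where the interval ran from -20.1% to 3.01%, under DESeq2 (adjusted p 0.228), with no filter on low counts (edgeR FDR 0.141), in the joint fit of the 12 libraries (0.204) and in all 6 omissions of 1 library (edgeR FDR 0.0737 to 0.141). The authors' deposited table gives a log2 fold change of -0.14 with an adjusted p of 0.116.

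Gart RNA pointed the same way without passing the test. The WT libraries had 57.4, 67.2 and 67.8 CPM and the KO libraries 61.1, 51.9 and 51.5 CPM. KO 1 lay above WT 1, so the groups overlapped. The log2 fold change was -0.22 (SE 0.10), at an edgeR FDR of 0.237, or 0.727 with the block, with an interval from -27.6% to 1.14%. Gart was the 1 gene of the 9 whose footprint difference was less negative than its RNA difference.

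Paics (ENSMUSG00000029247.17), whose product carries out 2 successive steps of purine synthesis, showed no difference beyond its spread. RNA-seq gave 70.1, 83.0 and 71.2 CPM in WT and 84.0, 69.1 and 82.5 CPM in KO. WT 2 and KO 2 swapped places against the other numbers, so the groups overlapped (log2 fold change 0.08, edgeR FDR 0.703). Footprints gave 257, 263 and 279 CPM in WT and 268, 262 and 245 CPM in KO (log2 fold change -0.04, edgeR FDR 0.658). The footprint interval, from -10.2% to 5.82%, bounds any difference more tightly than the RNA interval, from -11.0% to 25.0%.

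Impdh2 (ENSMUSG00000062867.13), which catalyses the rate-limiting step to guanine nucleotides, was the most thinly counted, with 25 to 46 reads per RNA-seq library and 43 to 161 per footprint library. RNA-seq gave 3.97, 4.46 and 5.10 CPM in WT and 6.73, 6.16 and 5.36 CPM in KO. Every KO library lay above every WT library, at means of 4.51 ± 0.562 and 6.08 ± 0.685 CPM (SD, n = 3). The log2 fold change of 0.41 (SE 0.16) had an unadjusted p of 0.0403 by edgeR and did not pass after adjustment (FDR 0.186, with the block 0.730). Footprints gave 8.93, 9.01 and 7.39 CPM in WT and 8.63, 8.45 and 10.6 CPM in KO, with WT 3 lowest and KO 3 highest and the rest together. That log2 fold change was 0.06 (SE 0.21, edgeR FDR 0.881).

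Values of Impdh2 are uncertain for a further reason. A pseudogene row, Impdh2-ps, held 29 to 119 footprint reads and 1 to 9 RNA-seq reads per library. Reads that align equally well to both copies count for neither, so the level of Impdh2 may be understated in every library. Tyms also has a pseudogene row, with 1 to 14 footprint reads and 0 RNA-seq reads per library, few beside the 432 to 2154 footprint reads of Tyms itself.

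Rrm1 (ENSMUSG00000030978.10), the large subunit of ribonucleotide reductase, varied between libraries of 1 genotype more than between genotypes. Its RNA-seq levels were 160, 187 and 197 CPM in WT and 213, 183 and 170 CPM in KO. WT 1 and KO 3 were the low libraries and KO 1 and WT 3 the high ones, so the groups overlapped (log2 fold change 0.06, SE 0.11; edgeR FDR 0.799). Footprints followed the same order within each genotype, with 795, 940.0 and 989 CPM in WT and 943, 808 and 760.0 CPM in KO. The footprint log2 fold change was -0.12 (SE 0.11; edgeR FDR 0.514), with an interval from -22.9% to 10.5%.

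Rrm2 (ENSMUSG00000020649.11), the small subunit that is made around S phase and limits the enzyme, had the largest footprint difference of the 9. Its promoter is shown with the same motifs in capitals, on the coding strand. The 120 bases end just before the RefSeq start site (GRCm38.p6, chr12:24708134-24708253, plus strand).
Rrm2 promoter: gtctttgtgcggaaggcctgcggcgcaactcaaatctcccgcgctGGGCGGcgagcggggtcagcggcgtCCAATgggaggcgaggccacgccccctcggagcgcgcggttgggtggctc
Rrm2 footprints stood at 437, 480.4 and 504 CPM in WT and at 433, 395 and 374 CPM in KO. KO 1, the highest KO library, lay just below WT 1, the lowest WT library, and the others were further apart. The means were 474 ± 34.0 and 401 ± 30.0 CPM (SD, n = 3), a difference of -15.3% with a 95% interval from -25.0% to -4.24%.

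Whether the footprint difference of Rrm2 counts as a call depended on the tool. The log2 fold change of -0.24 (SE 0.07) had an edgeR FDR of 0.0717, or 0.258 with the block, and an adjusted p of 0.0362 under DESeq2. By edgeR it was called with no filter on low counts (FDR 0.0338), and in 0 of 6 omissions of 1 library (FDR 0.0506 to 0.165). The authors' deposited table gives -0.23 with an adjusted p of 0.0247 and lists the gene as significantly down. With the block the unadjusted 95% interval was -27.2% to -1.60%. RNA-seq showed no such difference: 133, 154 and 154 CPM in WT and 158, 135 and 136 CPM in KO. There KO 1 was the highest of all 6 libraries and WT 1 the lowest (log2 fold change -0.04, SE 0.09; edgeR FDR 0.838).

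Tyms (ENSMUSG00000025747.12), thymidylate synthase, overlapped between genotypes in both assays. RNA-seq gave 52.8, 66.9 and 61.4 CPM in WT and 66.7, 51.4 and 57.8 CPM in KO (log2 fold change -0.04, edgeR FDR 0.891). Footprints gave 110, 120.5 and 126 CPM in WT and 122, 112 and 106 CPM in KO (log2 fold change -0.06, SE 0.07; edgeR FDR 0.584). The footprint interval ran from -14.6% to 7.41%.

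Dck (ENSMUSG00000029366.10), deoxycytidine kinase, had the most RNA-seq reads of the 9, 1651 to 3685 per library. RNA-seq gave 389, 427 and 364 CPM in WT and 436, 391 and 460 CPM in KO. KO 3 was the highest library and WT 3 the lowest, while WT 2 lay above KO 2 (log2 fold change 0.12, SE 0.09; edgeR FDR 0.442). Footprints gave 613, 619 and 684 CPM in WT and 677, 670 and 602 CPM in KO. Here number 3 was turned round, with WT 3 the highest and KO 3 the lowest (log2 fold change 0.03, SE 0.06; edgeR FDR 0.822). The footprint interval ran from -8.53% to 13.4%.

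Tk1 (ENSMUSG00000025574.13), the thymidine kinase of dividing cells, had the widest spread in RNA-seq and nearly equal group means. The libraries had 16.4, 23.4 and 23.8 CPM in WT and 26.6, 18.5 and 18.5 CPM in KO, from 78 to 182 reads. The lowest and the highest library both carried number 1, WT and KO respectively (log2 fold change 0.00, SE 0.20; edgeR FDR 0.999). The interval, from -28.6% to 40.1%, leaves room for differences larger than any seen among the other members in RNA. Footprints gave 40.6, 45.2 and 41.3 CPM in WT and 40.0, 35.7 and 39.3 CPM in KO. KO libraries lay below WT libraries without overlap, KO 1 only just, and the log2 fold change of -0.16 (SE 0.07) did not pass (edgeR FDR 0.164, with the block 0.561).

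**Figure D3:**
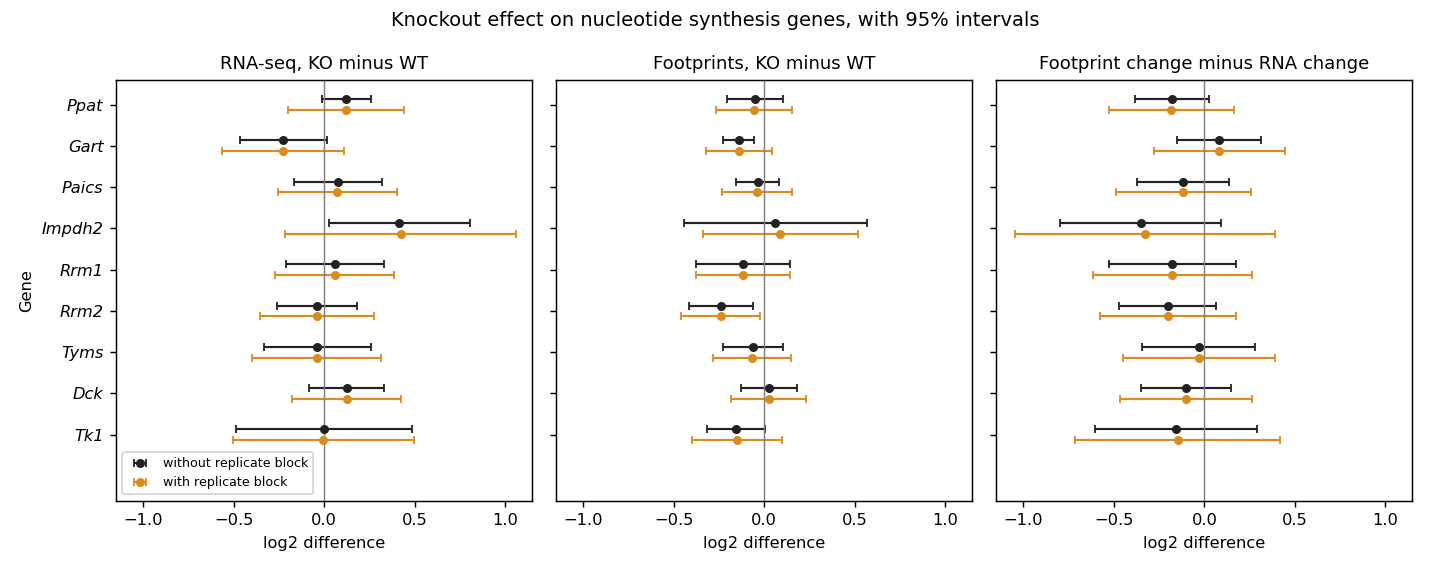
Log2 difference between KO and WT (horizontal axis) for each of the 9 genes (vertical axis) in RNA-seq, in footprints and as the footprint change minus the RNA change, with points at the edgeR estimate and bars for the 95% interval, unadjusted for multiple tests, without (black) and with (orange) the replicate block. In footprints the interval without the block lies below 0 for Gart and Rrm2, and with the block for Rrm2 alone.

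Translation was compared next, as the KO effect in footprints beyond that in RNA. None of the 9 passed this test: 0 of 9 were called (edgeR interaction, FDR 0.417 to 0.956), where 0.211% of 11854 genes were, 0 had an unadjusted p under 0.05, and DESeq2 called 0. With the block 0 of 9 were called against 0.0169% of all genes. The estimate was negative for 8 of 9 genes and positive for Gart (0.08, SE 0.11), with a median of -0.16 beside 0.01 for all genes. It was negative for 48.0% of all genes, and the difference between these shares was not tested. Ppat had the lowest FDR, at an estimate of -0.18 (SE 0.09; edgeR FDR 0.417). Rrm2 stood at -0.20 (SE 0.12; edgeR FDR 0.503), with a 95% interval from -0.47 to 0.07 on the log2 scale. That interval holds the whole footprint difference of Rrm2 as well as no difference.

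Within WT cells, all 9 genes carried more footprints for their RNA than most genes. The log2 ratio of footprint CPM to RNA-seq CPM was above 0 for 9 of 9 (edgeR FDR 5.40e-05 or less), a direction called for 36% of the 11854 genes. CPM is scaled within each assay, so the point 0 is set by the scaling. The percentiles among all genes are the measure to read. The median over all genes was -0.21, with the 10th percentile at -2.04 and the 90th at 1.41. Rrm1 stood at 2.31 (SE 0.12), the 98th percentile. Gart at 1.87 (SE 0.08), Paics at 1.82 (SE 0.08), Ppat at 1.72 (SE 0.07) and Rrm2 at 1.68 (SE 0.09) followed, between the 93.4th and the 95.3rd percentile. A lower set was formed by Tk1 at 0.98 (SE 0.14), Tyms at 0.96 (SE 0.10), Impdh2 at 0.90 (SE 0.14) and Dck at 0.69 (SE 0.08), between the 75.3rd and the 82.3rd. Related genes outside the 9 also had more CPM in WT footprints than in WT RNA-seq, such as Cad (244 against 69.5) and Mcm2 (527 against 132). Others had fewer, such as Uck2 (165 against 211) and Impdh1 (128 against 135). Since the median over all genes was itself below 0, fewer CPM does not by itself place a gene below most genes.

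Within the order of these ratios, the 95% intervals of Gart, Paics, Ppat and Rrm2 overlapped one another, as did those of Tk1, Tyms, Impdh2 and Dck. The interval of Rrm1 (2.05 to 2.57) lay above that of Gart (1.70 to 2.03), and that of Rrm2 (1.48 to 1.87) above that of Tk1 (0.67 to 1.28). With the block the intervals widened, and that of Rrm1 (1.99 to 2.64) overlapped that of Gart (1.61 to 2.13), while that of Rrm2 (1.41 to 1.95) stayed just above those of Tk1 (0.59 to 1.38) and Impdh2 (0.39 to 1.4). All 9 ratios were called above 0, the point set by the scaling, with the block too (edgeR FDR 0.00346 or less). Differences between members were not tested. Of the subunits of ribonucleotide reductase, Rrm1 had 4.97 times and Rrm2 3.2 times as many CPM in footprints as in RNA-seq. The ratio sets reads on the coding sequence against reads on the whole transcript. The length of untranslated ends thus enters the ratio, and its part was not tested. RNA-seq libraries placed 50.9% to 57.1% of reads in no annotated feature, and these reads entered neither the counts nor the library sizes. What RNA they came from was not tested. Against 10460 genes that RefSeq calls protein coding, a background chosen after the data were seen, the 9 lay between the 74.2nd (Dck) and the 98.7th percentile (Rrm1).

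**Figure D4:**
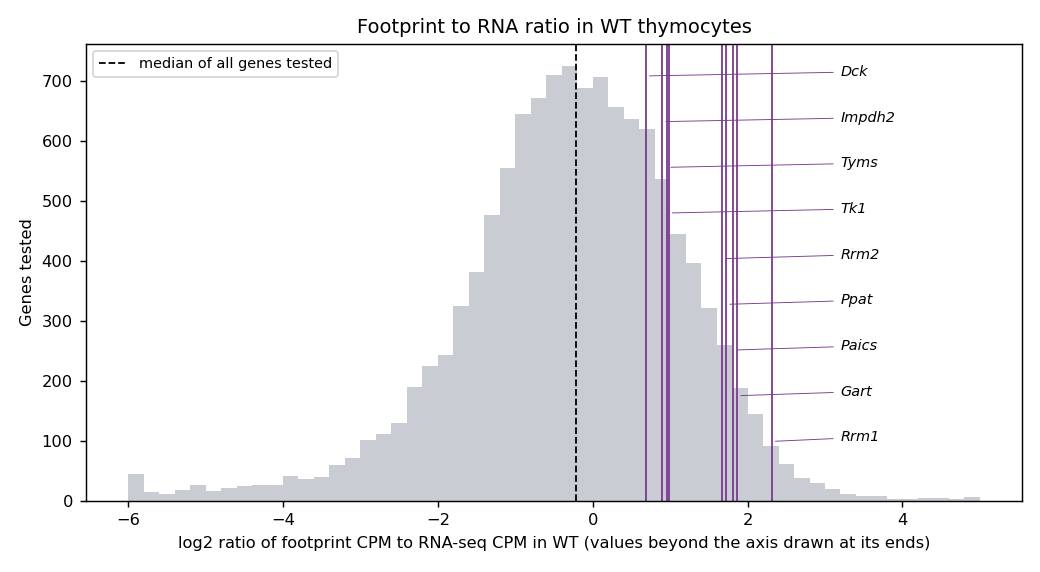
Distribution over 11854 genes (vertical axis, number of genes) of the log2 ratio of footprint CPM to RNA-seq CPM in WT (horizontal axis), with the median of all genes as a dashed line and the 9 genes as vertical lines. All 9 lie to the right of the median of -0.21, with Rrm1 farthest at 2.31.

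Promoters of the 9 genes, 250 bases before to 50 after the RefSeq start site, were searched on both strands for each motif alone, beside 32851 promoters of the same length. That background was not limited to protein-coding or expressed genes, and differences from its shares were not tested. GGGCGG was in 8 of 9, all but Rrm1, and in 35.7% of all promoters. CCAAT was in 5 of 9 (Gart, Impdh2, Paics, Rrm1 and Rrm2) and in 37.4% of all. The E-box CACGTG, which Myc can bind, was in 3 of 9 (Impdh2, Paics and Tyms) and in 7.15% of all. Of 3 forms of the E2F motif, TTTCCCGC was in Ppat alone (1.07% of all promoters), and TTTGGCGC and TTTCGCGC were in none of the 9 (0.514% and 0.323%). The called gene Gart and the gene with the largest footprint difference, Rrm2, share GGGCGG and CCAAT with Impdh2 and Paics, which were not called. These are matches of letters, not sites.

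Other genes of nucleotide metabolism were called in both directions. Besides the 9, 46 of 50 listed genes were tested. In RNA-seq 2 were called higher and 2 lower, and 0 with the block; in footprints 5 higher and 6 lower, and 1 with the block; for translation 0. These are 8.70% of the 46 in RNA-seq and 23.9% in footprints, near the 6.91% and 17.6% of all genes. Their median log2 fold change was -0.03 in RNA-seq and -0.01 in footprints, against -0.00 and -0.01 for all genes.

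Purine synthesis as a whole (14 genes, the 4 members included) had 1 gene called higher in RNA-seq and 3 called lower in footprints, none with the block, which is 7.14% and 21.4% of the list and near the shares of all genes. The 3 were Gart, Adss (-0.25, SE 0.03; edgeR FDR 0.00515, with the block 0.171), which commits inosine monophosphate to adenine nucleotides, and Pfas (-0.19; edgeR FDR 0.0104, with the block 0.285), an enzyme that acts between steps of Gart; Pfas was named after its values were seen. The RNA-seq rise was in Prpsap2 (0.45; edgeR FDR 0.0450, with the block 0.564), a regulator of ribose phosphate supply. Impdh1, the sister enzyme of Impdh2, stood at -0.28 in RNA-seq (edgeR FDR 0.0708) and 0.05 in footprints, where Impdh2 had 0.41 and 0.06. Adsl had the highest footprint estimate of the list, 0.07 (edgeR FDR 0.169).

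Pyrimidine synthesis (6 genes) had 0 calls in RNA-seq, and 1 higher and 2 lower in footprints, none with the block. The 3 footprint calls are 3 of 6 genes, against 17.6% of all genes, a difference that was not tested. CTP synthases went apart in footprints: Ctps fell by 0.35 (SE 0.04; edgeR FDR 0.00414, with the block 0.0891) and Ctps2 rose by 0.27 (SE 0.06; edgeR FDR 0.0240, with the block 0.197) on the log2 scale. In RNA-seq they stood at -0.26 and 0.15, neither called. Cad, which carries the first 3 steps, was the other called lower (-0.20; edgeR FDR 0.00911, with the block 0.254), and was named after its values were seen.

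Deoxynucleotide supply (8 genes with Rrm1, Rrm2 and Tyms) held the 1 gene called both without and with the block, Samhd1, a hydrolase that breaks deoxynucleotides down. Its footprints fell by 0.55 on the log2 scale (SE 0.07), from 128 ± 8.97 CPM to 87.7 ± 6.25 CPM (SD, n = 3), at an edgeR FDR of 0.00575 and, with the block, 0.0186. In RNA-seq the level fell from 106 ± 8.75 to 66.2 ± 6.38 CPM (-0.68 on the log2 scale; FDR 0.0136 by edgeR), and with the block the FDR was 0.0636. In footprints 7 of the 8 genes of this list lay lower in KO, where 51.6% of all genes did. Called were 2 of them (25% of the list, beside 17.6% of all genes), Samhd1 and Dctd. Dctd (-0.63, edgeR FDR 0.0221, with the block 0.228) was named after its values were seen. It was thinly counted, at 6.63 CPM in WT and 4.51 CPM in KO footprints (average log2 CPM 2.55). In RNA-seq Dctd stood at -0.47 and was not called (edgeR FDR 0.207). The list median was -0.12 in footprints and -0.02 in RNA-seq. Rrm2b, the p53-induced alternative to Rrm2, stood at 0.40 in RNA-seq (edgeR FDR 0.0783) and 0.09 in footprints, where Rrm2 had -0.04 and -0.24.

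Salvage enzymes (10 genes with Dck and Tk1) had 1 called higher in RNA-seq and 3 called higher in footprints, none lower and none with the block. These 1 of 10 and 3 of 10 stand beside 6.91% and 17.6% of all genes. Hprt, which salvages hypoxanthine and guanine, rose by 0.46 in RNA-seq (SE 0.09; edgeR FDR 0.0364, with the block 0.284) and by 0.33 in footprints (edgeR FDR 0.0278, with the block 0.126). Tk2, the mitochondrial counterpart of Tk1, rose in footprints by 0.46 (edgeR FDR 0.0478, with the block 0.310) and stood at 0.00 in RNA-seq, while Tk1 had -0.16 and 0.00. The other was Dguok, a mitochondrial deoxyguanosine kinase (0.34; edgeR FDR 0.0193, with the block 0.149), named after its values were seen. Aprt stood at -0.54 in RNA-seq (edgeR FDR 0.118) and 0.06 in footprints.

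Catabolic enzymes (9 of 13 tested) had 1 called lower in RNA-seq and 1 called higher in footprints, none with the block; 1 of 9 is 11.1%, beside 6.91% and 17.6% of all genes. Ampd1 rose in footprints by 0.51 (edgeR FDR 0.0199, with the block 0.184). Nt5e, named after its values were seen, fell in RNA-seq by 0.87 (edgeR FDR 0.0106, with the block 0.323), from 5.70 to 3.13 CPM. Its average log2 CPM of 2.25 lay below the 3 set for naming the largest falls. In footprints Nt5e stood at -0.73 and was not called (edgeR FDR 0.103). Nt5c stood at -0.36 in RNA-seq and -0.16 in footprints, and Nt5c2 at 0.20 in RNA-seq, none of them called. Folate enzymes that supply one-carbon units to Gart and Tyms (8 genes) had 0 calls in either assay, with 1 gene, Mtr (0.20 in RNA-seq, 0.10 in footprints), highest in both. Mthfd2 (-0.21) was the lowest in RNA-seq and Shmt2 (-0.19) the lowest in footprints.

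Genes of cell division and of growth signals were set beside the 9. Of 18 S-phase genes 1 was called in each assay, or 5.56%, against 6.91% of all genes in RNA-seq and 17.6% in footprints. It was E2f2, called lower in RNA-seq (-0.44; edgeR FDR 0.0325, with the block 0.252) and in footprints (-0.38; edgeR FDR 0.0192, with the block 0.0875). In footprints 14 of the 18 lay lower, where 51.6% of all genes did. The list median there was -0.10, beside -0.06 for the 9 nucleotide genes and -0.01 for all genes. In RNA-seq 9 of 18 lay lower, where 50.1% of all genes did. Ccne1 was the lowest of the list in footprints (-0.51; edgeR FDR 0.0545) and Gins2 the highest (0.21), and Ccne2 was the highest in RNA-seq (0.26). The part of this list in the footprint values of Rrm2, Tk1 and Gart was not tested.

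Among 11 growth genes 1 was called higher and 1 lower in each assay, none with the block. That is 18.2% of the list, above the 6.91% of all genes called in RNA-seq and close to the 17.6% in footprints, and it was not tested. Pik3r1, a regulatory subunit of PI3 kinase, rose by 0.25 in RNA-seq and by 0.28 in footprints (edgeR FDR 0.0353 and 0.0206, with the block 0.574 and 0.152). Slc7a5, an amino acid transporter, fell in RNA-seq by 0.44 (edgeR FDR 0.0471, with the block 0.395), and Myc fell in footprints by 0.19 (edgeR FDR 0.00917, with the block 0.290). Slc29a1, which carries nucleosides into cells, stood at 0.31 in RNA-seq and 0.27 in footprints and was not called (edgeR FDR 0.130 and 0.0864).

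**Figure D5:**
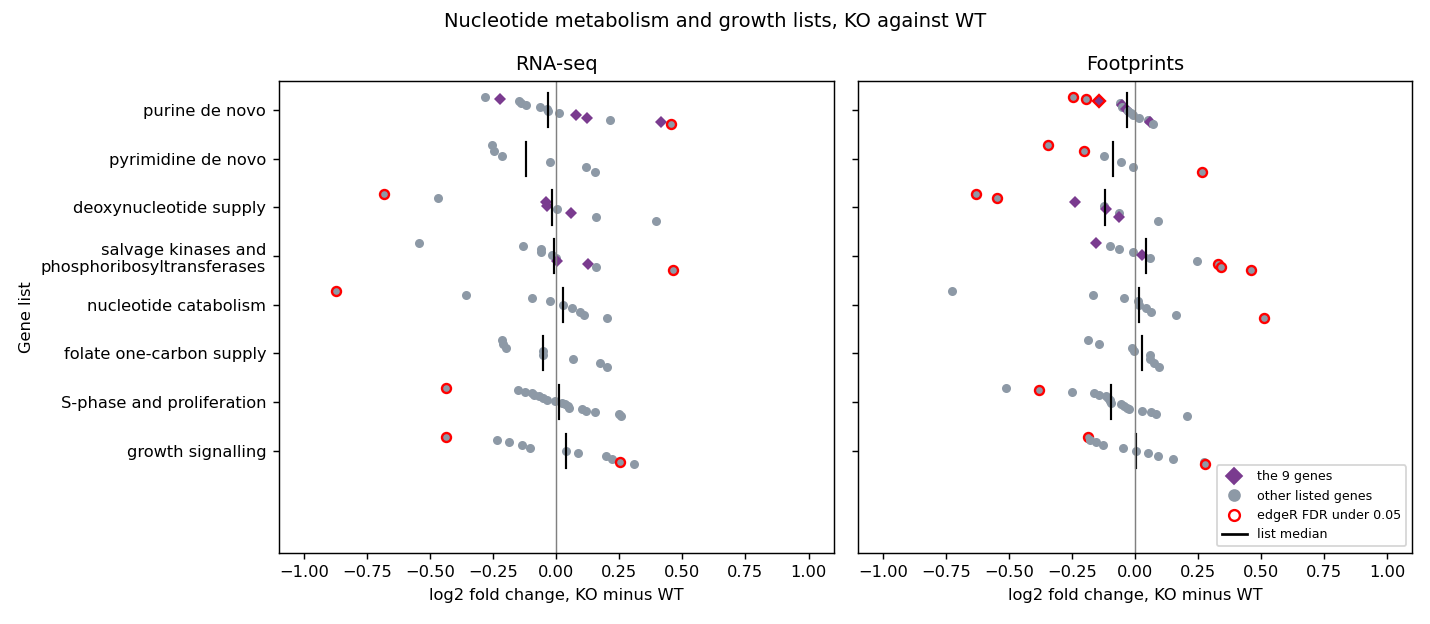
Log2 fold change of KO against WT (horizontal axis) for each tested gene of the 8 lists (vertical axis) in RNA-seq and in footprints, with the 9 genes as purple diamonds, other listed genes as grey points, a red edge for an edgeR FDR under 0.05 and a black bar at the list median. In footprints Gart is the 1 diamond with a red edge, and the deoxynucleotide list has its median at -0.12.

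Markers of other cells differed between genotypes in some lists. In footprints the 5 thymic epithelial markers summed to 75.5 to 82.3 CPM in WT and 59.8 to 70.5 CPM in KO (1 called lower), and the 5 B cell markers to 43.4 to 57.6 CPM in WT and 56.2 to 75.5 CPM in KO (1 called higher). Endothelial and fibroblast markers (5 genes) ranged from 187 to 223 CPM and from 215 to 260.0 CPM (1 called higher). Macrophage and dendritic markers (6 genes) ranged from 225 to 265 and from 215 to 257 CPM, and erythroid markers (6 genes) from 40.7 to 75.6 and from 34.8 to 74.1 CPM, each with 1 called lower. In RNA-seq 3 of these lists did not overlap between genotypes. Erythroid markers summed to 76.0 to 90.9 CPM in WT and 46.6 to 58.4 CPM in KO (1 called lower), thymic epithelial markers to 18.9 to 22.2 and 14.2 to 17.3 CPM (1 called lower), and endothelial and fibroblast markers to 198 to 203 and 226 to 235 CPM (1 called higher). B cell markers summed to 12.2 to 17.2 CPM in WT and 17.0 to 23.1 CPM in KO, and macrophage and dendritic markers to 66.5 to 77.3 and 63.1 to 74.6 CPM, with 0 called by edgeR in either list. With the block, 1 B cell marker was called in footprints, and 0 in the other lists of this paragraph or in RNA-seq. Over all genes 17.6% were called in footprints and 6.91% in RNA-seq (3.02% and 0.806% with the block). Low counts left 5 of 6 erythroid markers tested in each assay. In RNA-seq 4 of 5 thymic epithelial and 3 of 5 endothelial and fibroblast markers were tested. None of these lists had a marker at 0 reads over an assay. The part of these lists in the RNA and footprint values of the 9 genes was not tested.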

How the data were processed

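The authors deposited whole-number read counts per Ensembl gene, 1 table for RNA-seq and 1 for footprints, named as adjusted; what was adjusted is not stated. FastQC, Bowtie2 2.5.1, STAR 2.7.10a, HTSeq 2.0.3 and DESeq2 1.40.2 are named in the submitters' processing notes; the genome build, gene models and strandedness were not given in the sources used here. Reads outside genes, ambiguous reads and multiply aligned reads stand in separate summary lines and stayed out of library sizes: 71.5% to 73.0% of RNA-seq reads and 26.9% to 27.7% of footprint reads. The 12 columns of per-library values in the authors' comparison tables were not used; fold changes and adjusted p-values credited to the authors' deposited table come from the same tables. Symbols were present for 55155 rows and missing for 180.

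KO was compared with WT within each assay with edgeR 4.0.16 in R 4.3.3 (TMM factors, filterByExpr with its minimum count of 10, quasi-likelihood test, Benjamini-Hochberg FDR under 0.05 over all genes tested). Translation was tested as a genotype-by-assay interaction in 1 fit of the 12 libraries, and the WT ratio as the assay contrast in the same fit. An SE is the one that gives the test's own p at its degrees of freedom, and intervals are at 95%, unadjusted for multiple tests. Other settings tried were DESeq2 1.42.0, RLE size factors, genes with at least 1 read in place of the filter, a block for replicate number, 1 joint fit of 12 libraries, an FDR under 0.1 and the omission of each library. The fits were tested on simulated data. The replicate numbers come from the sample titles and the labels do not say that they pair mice, so the main test has no block. That same-numbered libraries deviated in opposite directions is no reason to leave the block out. With such mirroring, SEs and FDRs from the main test may be too small. Named genes were the 9 members, list genes called without and with the block, and per list the largest rise and fall in each assay where the average log2 CPM reached 3. The members, the 8 pathway lists and the 6 marker lists were chosen with earlier results of these data known. The counting error set beside the pair means treats reads as independent and covers counting only.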

Additional observations from a re-analysis of the deposited data

How the results depend on the processing

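The number of the 9 genes called in footprints, 1 by edgeR, was 0 with the replicate block, 0 in the joint fit of 12 libraries, 2 at an FDR under 0.1 (Gart and Rrm2) and 0 to 0 with each library left out, where fewer samples are compared; otherwise the cause was not tested. DESeq2 and the absence of a low-count filter also gave 1, but Rrm2 in place of Gart. The counts of 0 in RNA-seq and 0 for translation, and of 9 for the WT ratio, held under every alternative run for them. Tk1 in RNA-seq, at 0.0009 on the log2 scale, turned to -0.000444 under DESeq2 and -0.00397 with the replicate block. With each library left out, signs turned for RNA-seq Rrm1 (-0.037 to 0.13), Tk1 (-0.20 to 0.11) and Tyms (-0.14 to 0.042), for footprint Dck (-0.0037 to 0.081), Impdh2 (-0.015 to 0.12) and Paics (-0.064 to 0.00024), and for translation of Tk1 (-0.28 to 0.043) and Tyms (-0.11 to 0.063); none of these was called. Over all genes, the block gave 110 calls against 943 in RNA-seq, 408 against 2376 in footprints and 2 against 25 for translation. DESeq2 gave 532, 1235 and 44, and the joint fit 1561 in RNA-seq. With each library left out the counts were 215 to 323, 1035 to 1554 and 6 to 24. Depth limits Impdh2 and Tk1 most, at 25 and 78 reads in their lowest RNA-seq libraries.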
